A study of Mus musculus with 18 samples.

Results

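Epididymal fat of mice on a high-fat diet (HFD) was compared with that of mice on a normal diet (ND) by RNA sequencing. The comparison covers the 13762 genes that reached 1 FPKM in at least 3 of the 9 epididymal fat libraries, of 23474 genes listed. FPKM, which sets sequenced fragments against gene length and library size, allows levels of genes of different length to be compared. Both groups were male C57BL/6J mice, an inbred strain that becomes obese on fat-rich food, with no transgene named in the labels. They were 17 weeks old, had been housed singly and had eaten their diet for 12 weeks, from 5 weeks of age. The study placed 10 mice on each diet, and each diet gave 3 libraries of polyadenylated RNA, which the labels number 1 to 3. Mice on the high-fat diet with 0.25% green tea ethanol extract (GT) gave 3 further libraries, used here only in this filter and to estimate the spread between libraries. The labels do not say whether a library held 1 mouse or a pool, and p-values here reflect only how these samples vary, in part perhaps for technical reasons. Nor is the fat content of the diets given in the sources used here.

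White fat stores fatty acids as triglyceride in large adipocytes and releases them by lipolysis when catecholamines act on it. Adipocytes also secrete hormones, among them leptin, which reports on fat stores, and adiponectin, whose level is low in obesity. When the epididymal depot of mice expands on fat-rich food, adipocytes die and macrophages gather around them in crown-like structures. These macrophages take up lipid, digest it in lysosomes and are marked by genes such as Trem2, Gpnmb, Cd9 and Itgax. Fibroblasts lay down collagen around the adipocytes at the same time. The depot lies against the testis and the epididymis, so it can be cut out together with parts of both.

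One normal diet library, ND 1, was rich in testis and epididymis RNA. The 24 germ cell genes on the testis list summed to 2537, 119 and 106 FPKM in HFD 1, 2 and 3, against 111041, 258 and 3898 FPKM in ND 1, 2 and 3. The 16 genes that mark epididymal epithelium summed to 15.2, 1293 and 1.13 FPKM in HFD 1, 2 and 3, against 25205, 11.6 and 51.7 FPKM in ND 1, 2 and 3, so HFD 2 also held RNA of epididymis. ND 1, ND 3 and HFD 1 were thus the libraries with the most testis RNA, and ND 2 was the normal diet library with the least. Adipocyte genes summed to 25129, 24681 and 22765 FPKM in HFD 1, 2 and 3, against 8114, 59351 and 39431 FPKM in ND 1, 2 and 3, so ND 1 was the lowest of the 6 libraries. Rank correlations over the 13762 genes ran from 0.282 to 0.602 between ND 1 and the other 8 libraries, and from 0.745 to 0.99 among those 8. FPKM totals ran from 527904 to 608819 in these 8 libraries and reached 1002765 in ND 1, and FPKM does not give the number of reads, so the depth behind a value is unknown.

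**Figure D1:**
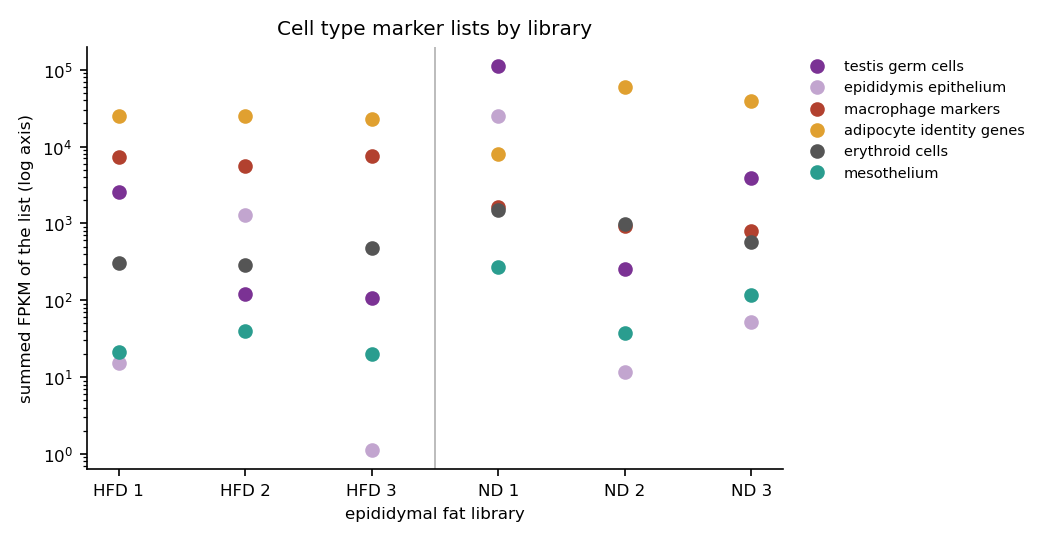
Summed FPKM of 6 marker lists (log axis) in each of the 6 libraries compared, HFD on the left and ND on the right, with 1 point per list and library. Testis and epididymis markers are highest in ND 1, macrophage markers are higher in each HFD library than in each ND library, and adipocyte markers are higher in ND 2 and ND 3 than in the HFD libraries.

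Each comparison was therefore fitted without ND 1 and again with all 9 libraries. Changes are log2(FPKM + 1) in HFD minus ND, with their standard error, from limma, and the added 1 understates changes of genes at low levels. A gene is said to have risen or fallen where its Benjamini-Hochberg adjusted p over all 13762 genes was under 0.05 without ND 1, and the paragraph gives its value with all 9 libraries or says whether it passed there. As tissue was sequenced in bulk, fewer cells of a type and less RNA per cell cannot be told apart. Levels in ND 1 may come from fat, testis or epididymis, and their source was not tested.

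Without ND 1, 3342 of 13762 genes (24.3%) differed between the diets, of which 2188 (15.9%) rose and 1154 (8.39%) fell on the high-fat diet. With all 9 libraries 777 (5.65%) differed, 726 (5.28%) higher and 51 (0.371%) lower. Counts of list members given below are to be read beside these shares, and a count near them is no result about the list. Each of these 726 was also among the 2188, as were 49 of the 51 among the 1154, and 0 genes called with all 9 had the opposite sign without ND 1. The 51 falls numbered 24 when libraries were scaled to equal FPKM totals and 95 under quantile scaling. HFD and ND libraries did not overlap in 6512 genes (47.3%) without ND 1, with HFD above ND in 28.2% of all genes and below it in 19.1%. With ND 1 they did not overlap in 3785 genes (27.5%), with HFD above ND in 21.9% and below it in 5.62%. The median change over all genes was -0.02 without ND 1 and 0.13 with all 9. Changes were larger upward: 118 of the genes that rose did so by more than 3 on the log2 scale, against 6 of those that fell.

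Since ND 3 and HFD 1 also held testis RNA, HFD 2 and HFD 3 were set against ND 2 alone. This fit takes ND 2 to vary like the other groups and also called 1715 of the 2188 rises (78.4%) and 734 of the 1154 falls (63.6%), and 0 of the called genes changed sign there. Leaving out 1 library gave 1853 calls (without HFD 3) to 4176 calls (without ND 2) where ND 1 was already absent. Without ND 2, falls outnumbered rises, at 2276 against 1900, with testis-bearing ND 3 as the normal diet library left in the fit. Where all 9 libraries entered, the count ran from 59 (without HFD 3) to 3342 (without ND 1), and it was 2811 when ND 2, 198 when HFD 1, 265 when HFD 2 and 418 when GT 2 was left out. Without HFD 3, 79 of the 100 calls with all 9 libraries among the genes named here ended, more than without any other library. A count of list members called with all 9 libraries is therefore followed in parentheses by the lowest count found when 1 library was left out, where the count moved by over 1.5 times. Where leaving out other libraries gave the same lowest count, only HFD 3 is named. For fibrillar collagens, for example, leaving out any HFD or GT library gave 0. Of 25 lists with at least 2 rises in that fit, the count fell that far in 22 when HFD 1, in 20 when HFD 2 and in 25 when HFD 3 was dropped. Dropping GT 1, GT 2 or GT 3 did so in 12, 15 or 9, and dropping ND 3 in 2.

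**Figure D2:**
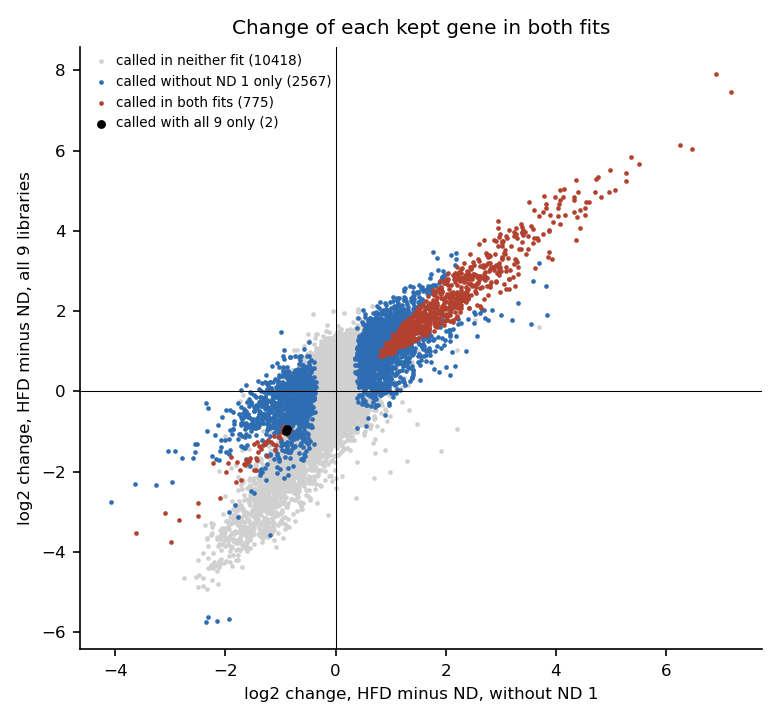
Change of each of the 13762 genes, HFD minus ND in log2(FPKM + 1), without ND 1 (horizontal axis) and with all 9 libraries (vertical axis). The 775 genes called in both fits (red) lie mostly at the upper right, the 2567 called without ND 1 only (blue) lie on both sides, and 2 (black) were called with all 9 only.

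Several of the 12 largest rises were those of macrophage genes. Gpnmb, a glycoprotein of phagocytes, stood at 874, 699 and 958 FPKM in HFD 1, 2 and 3, against 2.32, 3.75 and 6.01 FPKM in ND 1, 2 and 3. Its change was 7.18 ± 0.52 without ND 1 (adjusted p = 0.00131) and 7.45 ± 0.52 with all 9 libraries (adjusted p = 0.00214). The ratio of its mean FPKM in HFD to that in ND 2 and ND 3, with nothing added, was 173. Mmp12, the macrophage elastase, stood at 969.8, 828 and 1379 FPKM in HFD 1, 2 and 3, against 0.0959, 9.70 and 5.95 FPKM in ND 1, 2 and 3. Trem2, the lipid receptor of macrophages, stood at 338, 232 and 365 FPKM in HFD 1, 2 and 3, against 7.58, 2.30 and 2.61 FPKM in ND 1, 2 and 3, and Atp6v0d2, a subunit of the vacuolar proton pump, at 165, 164 and 196 FPKM in the HFD libraries and 2.04, 1.42 and 1.16 FPKM in ND 1, 2 and 3. Their changes were 6.91 ± 0.49, 6.47 ± 0.52 and 6.26 ± 0.44 without ND 1. The naming rule took only rises in which each HFD library was above ND 2 and ND 3. For Gpnmb, Mmp12, Trem2 and Atp6v0d2 no HFD library overlapped ND 1 either.

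Il1rn, which blocks the interleukin-1 receptor, was listed at 56.9, 58.2 and 74.3 FPKM in HFD 1, 2 and 3, against 0, 0.700 and 0.154 FPKM in ND 1, 2 and 3. Slc37a2, a sugar phosphate carrier of macrophages, stood at 94.0, 89.8 and 112 FPKM in HFD 1, 2 and 3, against 2.36, 2.42 and 2.61 FPKM in ND 1, 2 and 3, and the ND libraries lay close together. F7, coagulation factor VII, stood at 61.0, 32.0 and 38.9 FPKM in HFD 1, 2 and 3, against 0.403, 0.285 and 0.297 FPKM in ND 1, 2 and 3. The protease Adam8, the tetraspanning protein Tm4sf19, the G protein regulator Rgs1, the ubiquitin-like Ubd and the receptor Cd300c2 rose by 5.36, 5.28, 5.27, 4.99 and 4.97. All of the 12 largest rises passed in both fits, with adjusted p from 0.00214 to 0.00477 with all 9 libraries. The naming rule required HFD to lie above ND 2 and ND 3, and each HFD library lay above ND 1 too. Il1rn and F7, under 1 FPKM in each ND library, passed the filter only through other libraries.

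The 12 largest falls included enzymes and secreted proteins of adipocytes. Cyp2e1, a cytochrome that oxidises ethanol and fatty acids, stood at 106, 111 and 65.3 FPKM in HFD 1, 2 and 3, against 1612 and 1492 FPKM in ND 2 and ND 3 and 102 FPKM in ND 1. Its change was -4.07 ± 0.47 without ND 1 (adjusted p = 0.00181) and -2.76 ± 1.03 with all 9 libraries (adjusted p = 0.188). ND 1 thus lay among the HFD libraries for this gene. Cfd, adipsin, the factor D protease of the alternative complement pathway, stood at 337, 349 and 251 FPKM in HFD 1, 2 and 3, against 4074 and 3626 FPKM in ND 2 and ND 3 and 3048 FPKM in ND 1. The fall of Cfd was -3.63 ± 0.30 without ND 1 (adjusted p = 0.00131) and -3.52 ± 0.36 with all 9 libraries (adjusted p = 0.00436), and here ND 1 lay with the other ND libraries. Agt, the precursor of angiotensin, stood at 15.4, 14.7 and 8.31 FPKM in HFD 1, 2 and 3, against 106 and 121 FPKM in ND 2 and ND 3 and 101 FPKM in ND 1, with a change of -3.09 ± 0.41 without ND 1 (adjusted p = 0.00249) and -3.04 ± 0.40 with all 9 libraries (adjusted p = 0.00692). Adipocyte genes summed to 8114 FPKM in ND 1, against 59351 and 39431 FPKM in ND 2 and ND 3. Which tissue gave the Cfd and Agt of ND 1 was not tested, so ND 1 adds no support to these 2 falls.

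Acsm3, a mitochondrial acyl-CoA synthetase, stood at 0.593, 0.850 and 0.856 FPKM in HFD 1, 2 and 3, against 23.2 and 19.3 FPKM in ND 2 and ND 3 and 0.358 FPKM in ND 1. Eci3, a peroxisomal enoyl-CoA isomerase, stood at 0.944, 2.13 and 2.06 FPKM in HFD 1, 2 and 3, against 31.0 and 19.3 FPKM in ND 2 and ND 3 and 2.73 FPKM in ND 1. Pck1, which makes glycerol phosphate from pyruvate in fat, stood at 266, 246 and 227 FPKM in HFD 1, 2 and 3, against 2129.8 and 1954 FPKM in ND 2 and ND 3 and 77.2 FPKM in ND 1. The 3 changed by -3.65 ± 0.34, -3.27 ± 0.37 and -3.05 ± 0.30. The naming rule took only falls in which each HFD library was below ND 2 and ND 3. Fam13a, which modulates insulin signalling in adipocytes, fell by 2.92, the transcription factor gene Mycl by 2.79, the monoacylglycerol acyltransferase Mogat1 by 2.59, the lipase Ces1d by 2.55 and the membrane protein gene Tmem88b by 2.55. Adgrg2, an adhesion receptor also known from the male excurrent ducts, stood at 3.66, 5.28 and 1.40 FPKM in HFD 1, 2 and 3, against 15.1 and 63.4 FPKM in ND 2 and ND 3 and 6.43 FPKM in ND 1. ND 3 was thus its highest library, while ND 1, far richer in testis and epididymis RNA, was below ND 2. The tissue behind its level in ND 3 was not tested. Of these 12 falls only Cfd and Agt also passed with all 9 libraries. By the rule for genes called with all 9 libraries only, the calcium channel subunit Cacna2d3 had a change of -0.99 there (adjusted p = 0.0392), against a change of -0.90 without ND 1 (adjusted p = 0.103).

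**Figure D3:**
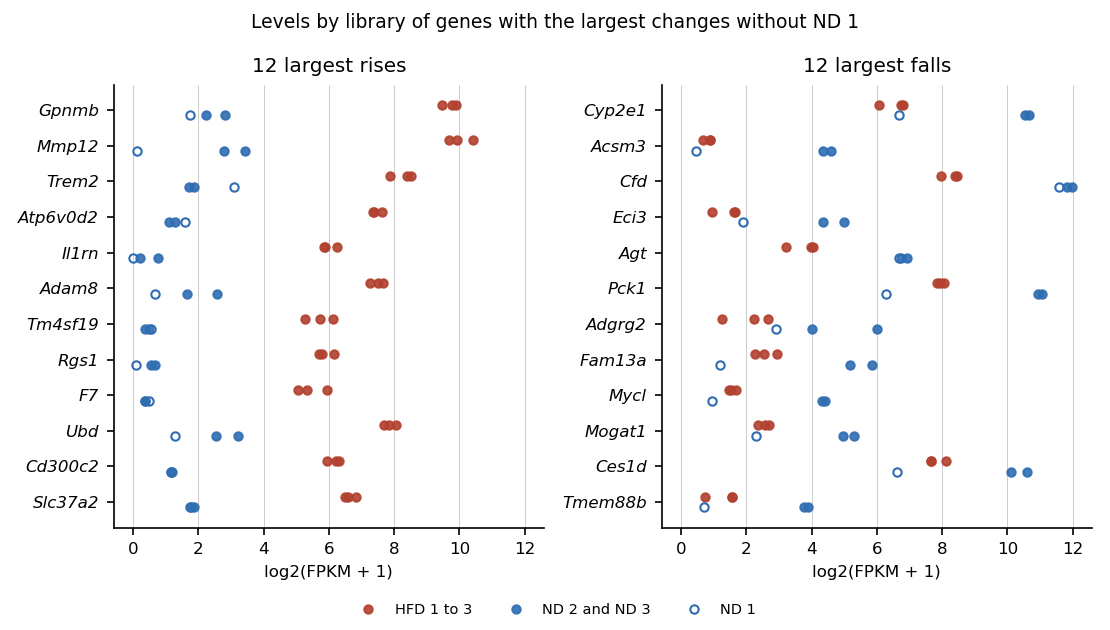
Levels as log2(FPKM + 1) of the 12 genes with the largest rises (left) and the 12 with the largest falls (right) in each library, HFD in red above ND in blue for each gene, with ND 1 as an open circle. All 12 rises separate HFD from ND with ND 1 included, while ND 1 lies at or below the HFD levels for falls such as Acsm3, Pck1 and Fam13a.

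Macrophage genes rose as a group. Of 19 general macrophage markers 18 rose and 0 fell without ND 1, beside 15.9% and 8.39% of all genes, and 16 (2 without HFD 3) were higher with all 9 libraries, beside 5.28% of all genes. The median change was 2.70 without ND 1 and 3.43 with all 9, beside medians of -0.02 and 0.13 over all genes. Cd68, a lysosomal membrane protein of macrophages, stood at 532, 398 and 532 FPKM in HFD 1, 2 and 3, against 7.19, 27.0 and 19.9 FPKM in ND 1, 2 and 3. Adgre1, the F4/80 antigen, stood at 213, 195 and 259 FPKM in HFD 1, 2 and 3, against 0.651, 16.0 and 14.3 FPKM in ND 1, 2 and 3, with a change of 3.78 ± 0.34 without ND 1 (adjusted p = 0.00139) and 4.87 ± 0.85 with all 9 libraries (adjusted p = 0.0164). The perforin-like Mpeg1 and the adaptor Tyrobp, which carries signals from Trem2, rose by 3.82 and 3.87, and the complement component gene C1qb by 2.74. The count of 16 became 5 without HFD 1 and 10 without HFD 2. All 5 markers named here stood higher in each HFD library than in each ND library. The summed level of the 19 markers was 7244, 5582 and 7488 FPKM in HFD 1, 2 and 3, against 1611, 939 and 805 FPKM in ND 1, 2 and 3. Cd68, Mpeg1, Tyrobp, Trem2 and C1qb also passed with all 9 libraries.

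Of 20 genes that mark lipid-associated macrophages, 15 rose and 0 fell, with 14 (5 without HFD 3) higher when all 9 libraries were fitted. The list median was 2.21 without ND 1 and 2.99 with it. The summed level did not separate the diets, at 31892, 29575 and 32106 FPKM in HFD 1, 2 and 3, against 4542, 33091 and 20336.5 FPKM in ND 1, 2 and 3. Lgals3, the lectin galectin-3, stood at 1529, 1117 and 1627 FPKM in HFD 1, 2 and 3, against 27.5, 101 and 70.8 FPKM in ND 1, 2 and 3. Itgax, the integrin alpha X chain of inflammatory macrophages, stood at 102, 77.8 and 127 FPKM in HFD 1, 2 and 3, against 0.159, 2.23 and 3.28 FPKM in ND 1, 2 and 3. Spp1, osteopontin, stood at 66.3, 49.7 and 99.8 FPKM in HFD 1, 2 and 3, against 0.398, 0.218 and 9.17 FPKM in ND 1, 2 and 3, with ND 3 above ND 1 and ND 2. The changes without ND 1 were 4.04 ± 0.43, 4.77 ± 0.38 and 4.32 ± 0.85. Plin2, the lipid droplet protein of cells other than adipocytes, stood at 1299, 1038 and 1336 FPKM in HFD 1, 2 and 3, against 58.8, 233 and 275 FPKM in ND 1, 2 and 3, and Lipa, the acid lipase of lysosomes, at 365, 379 and 439 FPKM in the HFD libraries and 1.82, 36.4 and 31.2 FPKM in ND 1, 2 and 3. Nceh1, which hydrolyses cholesteryl esters in macrophages, rose by 3.89, and the fatty acid carrier Fabp5 by 2.17. Lpl and Cd36, which adipocytes also express, moved less, at -0.55 and 0.15 without ND 1, neither passing in either fit. Lgals3, Itgax, Spp1, Plin2, Lipa, Nceh1 and Fabp5 also passed with all 9 libraries.

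Genes of resident tissue macrophages did not move together. Of 10 genes 3 rose and 1 fell without ND 1, beside 15.9% and 8.39% of all genes. With all 9 libraries 0 were higher and 0 lower. Medians were 0.10 without ND 1 and 0.85 with all 9. Mrc1, the mannose receptor, stood at 58.7, 64.6 and 74.7 FPKM in HFD 1, 2 and 3, against 1.83, 24.4 and 19.5 FPKM in ND 1, 2 and 3, and the folate receptor Folr2 at 128, 97.6 and 143 FPKM in the HFD libraries and 4.84, 40.9 and 37.8 FPKM in ND 1, 2 and 3. Their changes were 1.55 ± 0.24 without ND 1 (adjusted p = 0.00405) and 2.55 ± 0.76 with all 9 libraries (adjusted p = 0.109), and 1.60 ± 0.22 without ND 1 (adjusted p = 0.00253) and 2.53 ± 0.70 with all 9 libraries (adjusted p = 0.0874). Lyve1, the hyaluronan receptor of perivascular macrophages and lymphatic vessels, stood at 7.53, 6.99 and 6.43 FPKM in HFD 1, 2 and 3, against 11.7 and 11.7 FPKM in ND 2 and ND 3 and 0.353 FPKM in ND 1, and the haptoglobin scavenger Cd163 had a change of -0.55 ± 0.20. Retnla, a secreted protein of alternatively activated macrophages that fat also makes, stood at 408, 320.2 and 189.5 FPKM in HFD 1, 2 and 3, against 1218 and 672 FPKM in ND 2 and ND 3 and 272 FPKM in ND 1. Neither Lyve1 nor Cd163 passed, while Retnla fell by 1.63 ± 0.35 (adjusted p = 0.0131). The call of Retnla ended without ND 2 (adjusted p = 0.0511) and that of the lectin Clec10a, which rose by 1.46, without ND 3 (adjusted p = 0.0554). The median of this list changed sign under other scalings of the libraries. Retnla and Clec10a did not pass with all 9 libraries.

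Genes of macrophage fusion and osteoclasts rose as well, in 6 of 8 without ND 1 and in 5 (2 without HFD 3) with all 9 libraries, and 0 fell in either fit. Dcstamp, required for the fusion of osteoclasts and giant cells in mice, stood at 8.23, 6.39 and 10.2 FPKM in HFD 1, 2 and 3, against 0.157, 0.235 and 0.103 FPKM in ND 1, 2 and 3. Tnfrsf11a, the RANK receptor, stood at 12.4, 12.3 and 17.3 FPKM in HFD 1, 2 and 3, against 0.327, 1.16 and 1.34 FPKM in ND 1, 2 and 3, and the bone protease cathepsin K (Ctsk) at 257, 193 and 291 FPKM in the HFD libraries and 1.12, 13.6 and 11.9 FPKM in ND 1, 2 and 3. The sialic acid receptor Siglec15 was listed at 2.85, 3.91 and 5.57 FPKM in the HFD libraries and 0, 0 and 0.111 FPKM in ND 1, 2 and 3. The changes of these 4 without ND 1 were 2.97, 2.72, 4.15 and 2.24. HFD and ND libraries did not overlap for Tnfrsf11a and Ctsk. Dcstamp and Siglec15, under 1 FPKM in each ND library, passed the filter only through other libraries, so their lack of overlap is no support. Mitf, a transcription factor of this lineage, rose by 1.04, a call that ended without HFD 3 (adjusted p = 0.0626). The RANK ligand Tnfsf11 stayed under 1 FPKM in each HFD and ND library. Dcstamp, Tnfrsf11a, Ctsk and Siglec15 also passed with all 9 libraries. Mitf did not.

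Lysosomal genes rose as a group. Of 31 genes of lysosomal hydrolases and membrane proteins 25 rose and 0 fell without ND 1, and 16 (0 without HFD 3) were higher with all 9 libraries, at medians of 1.21 and 1.66. Of 18 subunits of the proton pump that acidifies lysosomes 14 rose without ND 1 and 8 (1 without HFD 3) with all 9, at medians of 0.74 and 1.33, and 0 fell. The lysosomal count of 16 became 1 when HFD 1 was dropped and 3 when HFD 2 was. Dropping GT 1, 2 or 3 left 8, 5 or 9. The pump count of 8 became 2 when HFD 1 was dropped, 3 when either HFD 2 or GT 2 was, and 5 when GT 1 was. In the fit lacking ND 1, the pump count was 9 without HFD 1 and 9 without HFD 3. Ctsd, the protease cathepsin D, stood at 3201, 2561 and 3453 FPKM in HFD 1, 2 and 3, against 378, 826 and 753 FPKM in ND 1, 2 and 3. The glucuronidase Gusb stood at 185, 154 and 208 FPKM in HFD 1, 2 and 3, against 6.19, 26.3 and 24.4 FPKM in ND 1, 2 and 3. Both were higher in each HFD library than in each ND library, with changes of 1.95 ± 0.18 and 2.79 ± 0.22 without ND 1. The proteases Ctss and Ctsz and the mannosidase Man2b1 rose by 4.37, 2.22 and 1.47. Among pump subunits, Tcirg1, the a3 subunit of osteoclasts and immune cells, stood at 217, 159 and 172 FPKM in HFD 1, 2 and 3, against 13.8, 21.3 and 28.7 FPKM in ND 1, 2 and 3. The catalytic subunit Atp6v1a stood at 123, 135 and 160.4 FPKM in HFD 1, 2 and 3, against 9.64, 37.2 and 40.6 FPKM in ND 1, 2 and 3. The subunit Atp6v1b2, which forms the head of the pump with Atp6v1a, rose by 2.09 and the membrane subunits Atp6v0a1 and Atp6v0c by 1.8 and 1.55. The sum of the lysosomal list was 15644, 13071 and 16891 FPKM in HFD 1, 2 and 3, against 1908, 4437 and 4057 FPKM in ND 1, 2 and 3. The macrophage marker sums given above moved with it, and their part in this rise was not tested. Ctsd, Gusb, Ctss, Ctsz, Man2b1, Tcirg1, Atp6v1a, Atp6v1b2, Atp6v0a1 and Atp6v0c also passed with all 9 libraries.

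Promoters of lysosomal genes are known to carry an E-box read by the TFEB family, so the letters CACGTG, and the longer TCACGTG that contains them, were searched on both strands. Sequences came from RefSeq on build GRCm38.p6, as windows from 250 bases before to 50 after each gene's start, and 10642 of the 13762 genes matched such a window. CACGTG was present for 1232 of these genes (11.6%), for 8 of 23 lysosomal genes (34.8%) and for 4 of 12 pump genes (33.3%). TCACGTG was present for 718 (6.75%), for 7 of 23 (30.4%) and for 4 of 12 (33.3%). CACGTG was present for 213 of 1716 genes that rose without ND 1 (12.4%) and for 88 of 875 that fell (10.1%). Among 13 macrophage markers with a window it was present for 0. A match describes the sequence and not its use in this tissue. List shares cover kept members whether they rose or not. As the motif is known from such promoters, a high share in these lists is no result about the diet. Stretches of 5 such windows are shown, from genes that rose in both fits, with each TCACGTG or its reverse complement in capitals. Of these genes Ctsa, Lamp1 and Atp6v0b are outside the naming rule and were chosen after their values and windows were seen.
Ctsa, chr2:164833735-164833791, plus strand: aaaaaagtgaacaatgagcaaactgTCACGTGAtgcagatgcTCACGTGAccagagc
Ctsd, chr7:142387894-142387950, minus strand: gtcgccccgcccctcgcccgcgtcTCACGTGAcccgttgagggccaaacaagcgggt
Lamp1, chr8:13159091-13159147, plus strand: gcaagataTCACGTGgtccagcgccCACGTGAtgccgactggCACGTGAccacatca
Atp6v1a, chr16:44139359-44139415, minus strand: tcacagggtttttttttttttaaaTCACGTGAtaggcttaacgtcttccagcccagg
Atp6v0b, chr4:117887335-117887391, minus strand: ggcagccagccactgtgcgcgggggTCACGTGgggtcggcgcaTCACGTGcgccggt
The palindrome TCACGTGA, which matches on both strands, stands in Ctsa, Ctsd and Atp6v1a, while Lamp1 holds 3 single matches within the stretch shown. The 5 genes changed by 1.79, 1.95, 1.21, 1.81 and 1.21 without ND 1.

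Chemokines that attract monocytes were among the rises. Of 22 chemokine ligands 11 rose and 2 fell without ND 1, beside 15.9% and 8.39% of all genes. Without HFD 3 as well, the counts were 7 up and 0 down. With all 9 libraries 7 (0 without HFD 3) were higher. Medians were 0.93 without ND 1 and 1.08 with all 9. Ccl2, which draws monocytes through the receptor Ccr2, stood at 39.0, 34.3 and 49.5 FPKM in HFD 1, 2 and 3, against 0.156, 4.04 and 4.08 FPKM in ND 1, 2 and 3. Ccl9, a mouse chemokine of macrophages, stood at 205, 168 and 211 FPKM in HFD 1, 2 and 3, against 1.5, 25.7 and 22.6 FPKM in ND 1, 2 and 3. Neither overlapped between the diets. Ccl3 and Cxcl14 rose by 2.09 and 1.84. The falls were those of Cxcl9, a chemokine that interferon gamma induces, at 0.83, and the eosinophil attractant Ccl24 at 0.69, which were chosen for naming after their values were seen. Cxcl9 ended without HFD 3 (adjusted p = 0.0525) and Ccl24 on leaving out any of ND 2, HFD 3 or GT 2 (adjusted p from 0.0504 to 0.0696). Among 10 receptors 5 rose and 0 fell without ND 1, and 3 (0 without HFD 3) were higher with all 9. The chemokine receptors Cxcr4 and Ccr1 rose in both fits, by 1.92 and 1.77. Ccr2 stood at 42.7, 42.8 and 33.4 FPKM in HFD 1, 2 and 3, against 22.5 and 15.1 FPKM in ND 2 and ND 3 and 0.624 FPKM in ND 1, and its rise of 1.05 ended on leaving out any of ND 3, HFD 1, HFD 2, HFD 3 or GT 2 (adjusted p from 0.0644 to 0.139). The decoy receptor Ackr1 rose by 1.12, ending on leaving out any of ND 3, HFD 1, HFD 2, HFD 3 or GT 2 (adjusted p from 0.0595 to 0.116), so the receptor count fell to 3 in each of those fits. Ccl2, Ccl9, Ccl3, Cxcl14, Cxcr4 and Ccr1 also passed with all 9 libraries. Ccr2, Cxcl9, Ccl24 and Ackr1 did not.

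Most cytokine genes did not pass the filter or the test. Of 23 listed cytokines and inhibitors 11 passed the filter, and of these 3 rose and 0 fell without ND 1, the rises being Tnf, Tgfb1 and Il1rn. In the fit of all 9, 3 (1 without HFD 3) were higher. Tnf stood at 2.11, 1.91 and 2.19 FPKM in HFD 1, 2 and 3, against 0, 0.207 and 0.167 FPKM in ND 1, 2 and 3. Tnf, like Il1rn, was under 1 FPKM in each ND library and passed the filter only through other libraries. The lack of overlap in Tnf and Il1rn is therefore no support. Tgfb1, which drives matrix production, stood at 57.2, 45.4 and 58.9 FPKM in HFD 1, 2 and 3, against 7.57, 8.92 and 10.6 FPKM in ND 1, 2 and 3, with a change of 2.34 ± 0.27 without ND 1 (adjusted p = 0.00177) and 2.45 ± 0.29 with all 9 libraries (adjusted p = 0.00646). Il1b stood at 0.429, 0.305 and 0.104 FPKM in the HFD libraries and 0.971, 0.140 and 0.447 FPKM in ND 1, 2 and 3, and Il6 was listed at 0.125, 0.0569 and 0 FPKM in the HFD libraries and 0, 0.0692 and 0.0754 FPKM in ND 1, 2 and 3, so neither was tested. Genes of the inflammasome, which activates caspase-1, rose in 9 of 10 without ND 1 and in 6 (0 without HFD 3) with all 9, at a median of 1.56 without ND 1, and 0 fell. Casp1, caspase-1 itself, stood at 21.2, 19.7 and 24.7 FPKM in HFD 1, 2 and 3, against 1.52, 6.58 and 4.47 FPKM in ND 1, 2 and 3. The ATP-gated channel P2rx7, the pore protein Gsdmd, the flagellin sensors Naip5 and Nlrc4 and the adaptor Pycard rose by 1.85, 1.36, 1.60, 1.51 and 2.41. Pycard stood at 18.4, 14.7 and 19.0 FPKM in HFD 1, 2 and 3, against 2.77 and 2.13 FPKM in ND 2 and ND 3 and 11 FPKM in ND 1, and with all 9 libraries its change of 1.81 did not pass (adjusted p = 0.11). Tnf, Il1rn, Casp1, P2rx7, Gsdmd, Naip5 and Nlrc4 also passed with all 9 libraries. Pycard did not.

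Genes of class II antigen presentation rose, while most lymphocyte genes did not pass the filter. Of 9 class II genes 7 rose without ND 1 and 3 (0 without HFD 3) with all 9 libraries, with 0 falls, and 3 were called against ND 2 alone. H2-Ab1, a class II beta chain, stood at 619, 439.6 and 482 FPKM in HFD 1, 2 and 3, against 69.0, 183 and 185 FPKM in ND 1, 2 and 3. H2-DMb1, which loads peptide, stood at 89.4, 74.4 and 78.7 FPKM in HFD 1, 2 and 3, against 13, 16.8 and 17.1 FPKM in ND 1, 2 and 3. Ciita, the class II transactivator, and the invariant chain Cd74 rose by 1.48 and 1.21. Class I genes rose in 5 of 13, led by H2-K1 at 1.14, and in 0 with all 9 libraries. The class I count fell to 2 when HFD 1, to 1 when HFD 3 and to 3 when GT 2 was left out. Of 24 genes of T, B and NK cells 10 passed the filter and 1 of these rose without ND 1 and 0 with all 9. The 1 was the immunoglobulin heavy chain Ighm, which stood at 296, 276 and 275 FPKM in HFD 1, 2 and 3, against 170.2 and 92.7 FPKM in ND 2 and ND 3 and 25.2 FPKM in ND 1, a rise of 1.16. Cd3e, Cd4, Cd8a and Foxp3 stayed under 1 FPKM in all HFD libraries and were not tested. H2-Ab1, H2-DMb1 and Ciita also passed with all 9 libraries. Cd74, H2-K1 and Ighm did not.

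Mast cell genes rose in 4 of 6 without ND 1 and 2 (0 without HFD 3) with all 9 libraries. Cpa3, their carboxypeptidase, stood at 4.14, 4.85 and 6.24 FPKM in HFD 1, 2 and 3, against 0.126, 1.26 and 0.824 FPKM in ND 1, 2 and 3, and the tryptase Tpsb2 rose by 1.41. The proteases Mcpt4 and Cma1 rose by 1.18 and 1.26, and the call of Cma1 ended without ND 3 (adjusted p = 0.0896) and without HFD 3 (adjusted p = 0.073). Among neutrophil genes S100a8 stood at 53.8, 60.7 and 51.2 FPKM in HFD 1, 2 and 3, against 0, 7.12 and 9.56 FPKM in ND 1, 2 and 3, and S100a8 and the receptor Csf3r rose by 2.60 and 1.38. The gelatinase Mmp9 fell by 1.15, a call that ended on leaving out any of ND 3, HFD 2 or HFD 3 (adjusted p from 0.0516 to 0.0579). Most neutrophil markers listed did not pass the filter: 3 of 10 did, of which 2 (0 without HFD 3) were higher with all 9 libraries, and Ly6g was listed at 0 in 5 of the 6 libraries. Of 6 dendritic cell genes 0 rose and 1 fell without ND 1, and 0 passed with all 9. The fall was that of Zbtb46 at 0.56, a call that ended on leaving out any of ND 3, HFD 1, HFD 2, HFD 3 or GT 2 (adjusted p from 0.0865 to 0.17). Cpa3, Tpsb2, S100a8 and Csf3r also passed with all 9 libraries. Mcpt4, Cma1, Mmp9 and Zbtb46 did not.

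Guanylate-binding proteins and immunity-related GTPases, which interferon gamma induces and which act against intracellular microbes, were among the immune genes that fell. Of 10 kept members 7 fell without ND 1, and 1 was higher with all 9 libraries. The 1 that rose was Ubd, listed with them as a ubiquitin-like gene that interferon gamma also induces. Gbp4 stood at 6.00, 9.06 and 5.58 FPKM in HFD 1, 2 and 3, against 19.2 and 20.9 FPKM in ND 2 and ND 3 and 0.447 FPKM in ND 1. Iigp1 stood at 8.04, 12.0 and 9.86 FPKM in HFD 1, 2 and 3, against 29.8 and 21.9 FPKM in ND 2 and ND 3 and 0.110 FPKM in ND 1, and Igtp at 7.71, 7.55 and 7.88 FPKM in HFD 1, 2 and 3, against 19.6 and 14.6 FPKM in ND 2 and ND 3 and 1.73 FPKM in ND 1. All 3 were lower in each HFD library than in ND 2 and ND 3, with changes of -1.44 ± 0.26, -1.29 ± 0.27 and -1.04 ± 0.19. Gbp7 and Irgm2 fell by 0.85 and 0.78, the first ending without ND 2 (adjusted p = 0.0673) and without HFD 3 (adjusted p = 0.074) and the second on leaving out any of ND 2, HFD 1 or HFD 3 (adjusted p from 0.0546 to 0.0668). Without ND 2 the list held 3 falls, without HFD 1 it held 4 and without HFD 3 it held 3. With all 9 libraries 0 fell, and the list median was 0.45 against -0.72 without ND 1. Ubd stood at 265, 204 and 229 FPKM in HFD 1, 2 and 3, against 1.43, 8.25 and 4.8 FPKM in ND 1, 2 and 3. The sums of the list, most of which was Ubd in the HFD libraries, were 362, 326 and 330.5 FPKM in HFD 1, 2 and 3, against 9.19, 210.1 and 171 FPKM in ND 1, 2 and 3, lowest in ND 1. Ubd also passed with all 9 libraries. Gbp4, Iigp1, Igtp, Gbp7 and Irgm2 did not.

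Interferon-stimulated promoters carry repeats of GAAA, and a pair of GAAA copies with 2 bases of any kind between them was searched on both strands in the same windows. Such a pair was present for 413 of 10642 genes (3.88%), for 76 of 1716 that rose without ND 1 (4.43%) and for 37 of 875 that fell (4.23%). In the guanylate-binding list, chosen as interferon-induced, it was present for 6 of the 7 members with a window (85.7%), which is no diet result. Stretches of 4 of them are shown, all from members that fell, with the matches in capitals. In Gbp3 and Gbp7 the match is the reverse complement, and in Gbp3 2 matches overlap. Gbp3, which fell by 0.56, is outside the naming rule and was chosen after its values and window were seen, and its call ended on leaving out any of ND 2, ND 3, HFD 1, HFD 2, HFD 3 or GT 2 (adjusted p from 0.0664 to 0.119).
Gbp3, chr3:142559974-142560033, plus strand: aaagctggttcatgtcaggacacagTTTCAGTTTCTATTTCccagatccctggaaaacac
Gbp7, chr3:142530258-142530317, plus strand: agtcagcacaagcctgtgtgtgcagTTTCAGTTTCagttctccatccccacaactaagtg
Igtp, chr11:58199497-58199556, plus strand: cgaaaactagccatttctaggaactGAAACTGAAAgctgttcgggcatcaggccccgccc
Irgm2, chr11:58214888-58214947, plus strand: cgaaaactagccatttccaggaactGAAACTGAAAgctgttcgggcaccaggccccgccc
The windows of Igtp and Irgm2 are nearly alike, and as members of 1 gene family such genes may share reads, so their separate values are uncertain. Type I interferon-induced genes did not move as a group. With all 9 libraries 0 were called when HFD 1 or HFD 3 was left out. In either main fit 1 of 19 was higher and 0 were lower. That gene was Oas1a, an oligoadenylate synthetase, at 11.7, 10.1 and 12.3 FPKM in HFD 1, 2 and 3, against 1.25, 2.09 and 2.37 FPKM in ND 1, 2 and 3, with a change of 1.93 ± 0.27 without ND 1 (adjusted p = 0.00286) and 2.11 ± 0.31 with all 9 libraries (adjusted p = 0.00854). Gbp3, Gbp7, Igtp and Irgm2 did not pass with all 9 libraries.

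**Figure D4:**
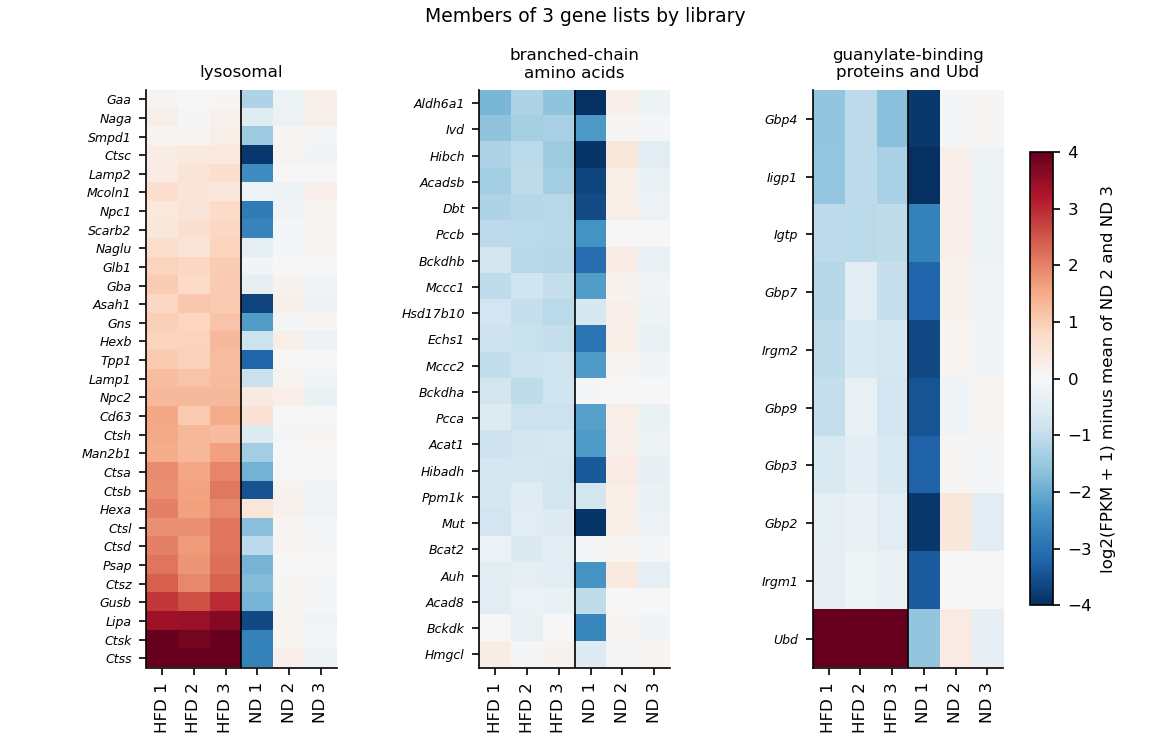
Level of each kept member of 3 gene lists in HFD 1 to 3 and ND 1 to 3 (left and right of the black line), as log2(FPKM + 1) minus the mean of ND 2 and ND 3, with colours ending at 4 and -4. Most lysosomal genes are above ND 2 and ND 3 in all HFD libraries, most genes of branched-chain amino acid breakdown and most guanylate-binding proteins are below them, and ND 1 is low in most members of each list.

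Genes of the fibrillar matrix rose, and those of the basement membrane did not move together. Of 6 fibrillar collagen genes 5 rose without ND 1, at a median of 1.37, and 1 (0 without HFD 3) with all 9 libraries, at a median of 2.51. Col1a1, of type I collagen, stood at 227, 159.8 and 218 FPKM in HFD 1, 2 and 3, against 8.30, 34.8 and 57.3 FPKM in ND 1, 2 and 3. Col3a1, of type III collagen, stood at 895, 715 and 818 FPKM in HFD 1, 2 and 3, against 11.4, 167 and 214 FPKM in ND 1, 2 and 3. For both, each HFD library was higher than each ND library, with changes of 2.13 ± 0.30 without ND 1 (adjusted p = 0.00285) and 2.90 ± 0.63 with all 9 libraries (adjusted p = 0.0372), and 2.09 ± 0.24 without ND 1 (adjusted p = 0.00181) and 3.40 ± 0.97 with all 9 libraries (adjusted p = 0.0962). Of 11 other collagen genes 7 rose without ND 1 and 2 (0 without HFD 3) with all 9, among them Col6a3, whose product yields endotrophin, at 74.6, 61.8 and 72.0 FPKM in HFD 1, 2 and 3, against 2.65, 31.0 and 22.2 FPKM in ND 1, 2 and 3. Of 27 matricellular and crosslinking proteins 15 rose and 0 fell without ND 1, and 2 (0 without HFD 3) were higher with all 9. Fibronectin (Fn1) rose by 1.15, the small proteoglycans Lum and Bgn by 2.19 and 1.30, periostin (Postn) by 1.73 and the collagen chaperone Serpinh1 by 1.03, each in the fit without ND 1 only. Col6a3 did not pass with all 9 libraries.

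Of 14 basement membrane collagens and laminins 2 rose and 2 fell without ND 1, beside 15.9% and 8.39% of all genes. With all 9 libraries 0 passed. The rises were those of Col4a2 at 0.53 and of perlecan (Hspg2) at 0.58, and the falls those of the laminins Lama4 and Lamb2 at 0.79 and 0.83. None of the 4 was stable: Col4a2 ended on leaving out any of ND 2, HFD 1, HFD 2, HFD 3, GT 1, GT 2 or GT 3 (adjusted p from 0.05 to 0.128), Hspg2 on leaving out any of ND 2, HFD 1, HFD 3, GT 1 or GT 2 (adjusted p from 0.0521 to 0.105), Lama4 on leaving out any of ND 2, HFD 1 or HFD 3 (adjusted p from 0.0513 to 0.067) and Lamb2 on leaving out any of ND 3, HFD 2 or HFD 3 (adjusted p from 0.056 to 0.0741). Among matrix proteases and their inhibitors 11 of 18 rose and 3 fell without ND 1, and 8 (2 without HFD 3) were higher with all 9. Timp1, which inhibits metalloproteinases, stood at 42.6, 22.0 and 39.3 FPKM in HFD 1, 2 and 3, against 5.71, 1.48 and 1.25 FPKM in ND 1, 2 and 3. Timp4, the inhibitor that adipocytes make, stood at 40.8, 48.6 and 33.5 FPKM in HFD 1, 2 and 3, against 169 and 128 FPKM in ND 2 and ND 3 and 16.6 FPKM in ND 1, with a change of -1.84 ± 0.31 without ND 1 (adjusted p = 0.00563) and -0.81 ± 0.79 with all 9 libraries (adjusted p = 0.53). The other falls were those of Mmp9 and Timp3 (1.15 and 0.88), and Timp3 ended on leaving out any of ND 2, ND 3, HFD 1, HFD 3 or GT 2 (adjusted p from 0.0562 to 0.109) and Mmp9 on leaving out any of ND 3, HFD 2 or HFD 3 (adjusted p from 0.0516 to 0.0579). Timp3 and Timp4 are outside the naming rule and were chosen after their values were seen. The stromelysin Mmp3, the metalloproteinase Mmp19 and the gelatinase Mmp2 rose by 2.41, 2.17 and 1.96. The count of falls was 1 without ND 3 and 1 without HFD 3. Timp1, Mmp3 and Mmp19 also passed with all 9 libraries. Col4a2, Hspg2, Lama4, Lamb2, Mmp9, Timp3 and Mmp2 did not.

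Stromal genes rose, while no endothelial gene passed. Of 13 genes of progenitors and fibroblasts 9 rose without ND 1 and 1 (0 without HFD 3) with all 9, and 0 fell. Mgp, an inhibitor of calcification, stood at 217, 243 and 336 FPKM in HFD 1, 2 and 3, against 54.2, 57.0 and 57.0 FPKM in ND 1, 2 and 3, with a change of 2.17 ± 0.25 without ND 1 (adjusted p = 0.00181) and 2.20 ± 0.29 with all 9 libraries (adjusted p = 0.00687). The mesenchymal markers Pdgfrb, Thy1 and Pi16 rose by 0.90, 0.88 and 0.90, none passing with all 9 libraries. Of 16 endothelial genes 0 rose and 0 fell in the fit without ND 1 and in that of all 9, with medians of -0.13 and 0.75. Pecam1, an adhesion molecule between endothelial cells, stood at 74.9, 81.0 and 71.2 FPKM in HFD 1, 2 and 3, against 68.0 and 72.1 FPKM in ND 2 and ND 3 and 5.44 FPKM in ND 1, where HFD and the other ND libraries overlapped. Of 9 smooth muscle and pericyte genes 1 passed without ND 1, Mcam, which fell to 151, 146 and 128 FPKM in HFD 1, 2 and 3, against 273 and 275 FPKM in ND 2 and ND 3 and 9.66 FPKM in ND 1. Mcam did not pass with all 9 libraries.

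Some markers of other cell types followed the diets or single libraries. Of 9 mesothelial genes 4 fell without ND 1 and 0 with all 9 libraries, Upk3b, Lrrn4, Msln and Gpm6a, by 1.57, 1.51, 1.44 and 1.32. The call of Upk3b ended on leaving out any of ND 2, ND 3, HFD 1 or HFD 2 (adjusted p from 0.0742 to 0.0966). Their list summed to 21.4, 39.7 and 19.7 FPKM in HFD 1, 2 and 3, against 273, 37.9 and 115 FPKM in ND 1, 2 and 3, so HFD 2 lay above ND 2. Erythroid genes summed to 304, 287 and 481 FPKM in HFD 1, 2 and 3, against 1477, 981 and 569.7 FPKM in ND 1, 2 and 3, lower in each HFD library than in each ND library. Of 5 genes 1, the globin Hbb-bs, fell by 1.41 in the fit without ND 1, a call that ended without ND 2 (adjusted p = 0.0598). In that fit the erythroid list held 4 falls without ND 3 and 5 without HFD 3. With all 9 libraries Hbb-bs was also called, but not when any HFD or GT library was left out or under any of the 3 scalings. The part of blood and mesothelium in other results was not tested. Upk3b, Lrrn4, Msln and Gpm6a did not pass with all 9 libraries.

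Adipocyte genes fell as a group once ND 1 was left out. Of 20 adipocyte identity genes 13 fell and 2 rose without ND 1, against 2 (1 without HFD 3) lower and 1 (0 without HFD 3) higher with all 9 libraries, and the median change was -1.03 and -0.11. The count of rises was 1 without ND 3 and 1 without HFD 1. Adiponectin (Adipoq) stood at 1027, 1037 and 908 FPKM in HFD 1, 2 and 3, against 2781 and 1826 FPKM in ND 2 and ND 3 and 202 FPKM in ND 1. Its change was -1.19 ± 0.26 without ND 1 (adjusted p = 0.0144) and -0.03 ± 0.88 with all 9 libraries (adjusted p = 0.985). It was higher in ND 2 and ND 3 than in each HFD library, and the call ended without ND 2 (adjusted p = 0.0509) and without HFD 3 (adjusted p = 0.058). Car3, a carbonic anhydrase abundant in fat, stood at 3013, 2836 and 2347 FPKM in HFD 1, 2 and 3, against 17765 and 10419.6 FPKM in ND 2 and ND 3 and 252 FPKM in ND 1, and Nrg4, a growth factor that fat secretes, at 12.4, 14.8 and 12.7 FPKM in HFD 1, 2 and 3, against 89.3 and 72.7 FPKM in ND 2 and ND 3 and 5.74 FPKM in ND 1. Both fell, by 2.32 ± 0.33 and 2.52 ± 0.22. The beta-3 adrenergic receptor Adrb3 fell by 2.33, the activin receptor Acvr1c by 2.06, the droplet protein Plin4 by 1.58 and Adig, which is needed for fat storage, by 1.45. Pparg, the master regulator of adipocytes, stood at 63.3, 62.7 and 51.8 FPKM in HFD 1, 2 and 3, against 92.5 and 71.5 FPKM in ND 2 and ND 3 and 3.36 FPKM in ND 1, with a change of -0.46 ± 0.21 without ND 1 (adjusted p = 0.16) and 0.96 ± 1.03 with all 9 libraries (adjusted p = 0.566), and the regulator Cebpa had a change of 0.32 without ND 1 (adjusted p = 0.159). Adig also passed with all 9 libraries. Car3, Nrg4, Adrb3, Acvr1c and Plin4 did not.

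Leptin went against the group. Lep stood at 899, 1196 and 1186 FPKM in HFD 1, 2 and 3, against 7.97, 323 and 317 FPKM in ND 1, 2 and 3, with a change of 1.76 ± 0.17 without ND 1 (adjusted p = 0.00142) and 3.48 ± 1.24 with all 9 libraries (adjusted p = 0.173), so HFD lay above ND in every library although only the fit without ND 1 passed. Of 19 secreted factors of fat 5 rose and 8 fell without ND 1, and 3 (1 without HFD 3) and 2 (1 without HFD 3) with all 9 libraries. The acute-phase protein Saa3 stood at 101, 102 and 89.3 FPKM in HFD 1, 2 and 3, against 2.73, 4.25 and 2.96 FPKM in ND 1, 2 and 3. Metrnl, a secreted factor of fat and macrophages, stood at 77.9, 59.8 and 77.1 FPKM in HFD 1, 2 and 3, against 7.44, 12.8 and 11.5 FPKM in ND 1, 2 and 3, and both passed in both fits with no overlap. Gdf15, a stress hormone, rose by 1.54. The retinol carrier Rbp4 stood at 177, 172 and 181 FPKM in HFD 1, 2 and 3, against 568 and 387 FPKM in ND 2 and ND 3 and 71.1 FPKM in ND 1 and fell by 1.40. The count of falls was 5 without HFD 3. The part of the macrophage RNA given above in the fall of adipocyte levels was not tested. Saa3, Metrnl and Gdf15 also passed with all 9 libraries. Rbp4 did not.

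Genes that break down stored fat fell together without ND 1. Of 17 lipolysis genes 10 fell and 0 rose, at a median of -0.59, while 0 passed with all 9 libraries, at a median of -0.11. Without HFD 3 the count was 5. Lipe, hormone-sensitive lipase, stood at 417, 354 and 366 FPKM in HFD 1, 2 and 3, against 714 and 677 FPKM in ND 2 and ND 3 and 278 FPKM in ND 1. Plin1, which coats the droplet and gates lipolysis, stood at 343, 314 and 341 FPKM in HFD 1, 2 and 3, against 682 and 706 FPKM in ND 2 and ND 3 and 59.1 FPKM in ND 1. Lipe and Plin1 were lower in each HFD library than in ND 2 and ND 3, with changes of -0.88 ± 0.15 and -1.06 ± 0.19 without ND 1. Pnpla2, the triglyceride lipase ATGL, stood at 708, 614 and 646 FPKM in HFD 1, 2 and 3, against 1416 and 1189 FPKM in ND 2 and ND 3 and 284 FPKM in ND 1, and its fall of 0.99 ended on leaving out any of ND 2, ND 3, HFD 1, HFD 2, HFD 3 or GT 2 (adjusted p from 0.0558 to 0.107). Brakes on lipolysis were among the falls too: the phosphodiesterase Pde3b, through which insulin acts, fell by 1.54, the niacin and ketone body receptor Hcar2 by 1.14 and the ATGL inhibitor G0s2 by 0.79. The call of G0s2 ended without HFD 3 (adjusted p = 0.0506). Lipe, Plin1, Pnpla2, Pde3b, Hcar2 and G0s2 did not pass with all 9 libraries.

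Among 13 droplet proteins 3 rose and 6 fell without ND 1, and 1 (0 without HFD 3) was higher with all 9, which was Plin2. The rises were of Plin2, Plin3 and Hilpda (2.26, 0.86 and 0.80), which are also droplet proteins of cells other than adipocytes, and the falls held Plin1 and Plin4. The count of falls was 3 without ND 3 and 2 without HFD 3. In triglyceride synthesis 4 of 17 fell and 2 rose without ND 1, beside 8.39% and 15.9% of all genes. With all 9, 1 (0 without HFD 3) was higher and 0 were lower. Gpat3, which adds the first fatty acid to glycerol phosphate, stood at 14.3, 14.9 and 12.4 FPKM in HFD 1, 2 and 3, against 62.5 and 61.0 FPKM in ND 2 and ND 3 and 13.6 FPKM in ND 1, with a change of -2.08 ± 0.27 without ND 1 (adjusted p = 0.00216) and -1.38 ± 0.57 with all 9 libraries (adjusted p = 0.229). Gpat3, Mogat1 and Pck1 were the larger falls, and the acyltransferase Agpat3 fell by 0.68, ending on leaving out any of ND 3, HFD 2 or HFD 3 (adjusted p from 0.0524 to 0.061). Agpat2, the acyltransferase that adipocytes need to store fat, rose by 0.99, and Gpd1, which makes glycerol phosphate, by 1.33, ending without ND 3 (adjusted p = 0.0865) and without HFD 1 (adjusted p = 0.0559). Without ND 2 the count of falls was 8, and without HFD 1 that of rises was 1. Plin2 and Gpd1 also passed with all 9 libraries. Plin3, Hilpda, Plin1, Plin4, Mogat1, Pck1, Agpat3 and Agpat2 did not.

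Genes of de novo lipogenesis moved in both directions. Of 17 genes 5 rose and 3 fell without ND 1, beside 15.9% and 8.39% of all genes. With all 9, 3 (1 without HFD 3) were higher. Acaca, acetyl-CoA carboxylase, stood at 21.8, 27.5 and 26.2 FPKM in HFD 1, 2 and 3, against 74.2 and 85.8 FPKM in ND 2 and ND 3 and 8 FPKM in ND 1. Scd1, the main desaturase of fat, stood at 3389, 4571 and 3545 FPKM in HFD 1, 2 and 3, against 11074 and 9242 FPKM in ND 2 and ND 3 and 306 FPKM in ND 1. Both were below ND 2 and ND 3 in each HFD library, and changed by -1.63 ± 0.27 and -1.41 ± 0.25. Scd2, a second desaturase, went up at 143, 181 and 154 FPKM in HFD 1, 2 and 3, against 21.7, 23 and 36.9 FPKM in ND 1, 2 and 3, with a change of 2.4 ± 0.25 without ND 1 (adjusted p = 0.0015) and 2.54 ± 0.30 with all 9 libraries (adjusted p = 0.00564). Fatty acid synthase (Fasn) stood at 393, 319 and 326 FPKM in HFD 1, 2 and 3, against 333 and 287 FPKM in ND 2 and ND 3 and 34.5 FPKM in ND 1, and neither it nor its regulator Srebf1 passed (0.15 and -0.54, adjusted p = 0.491 and 0.18 without ND 1). The acetyl-CoA synthetase Acss2 rose by 1.05, citrate lyase (Acly) by 0.49 and the elongase Elovl3 by 1.15. Acly ended on leaving out any of ND 2, HFD 2, HFD 3, GT 1, GT 2 or GT 3 (adjusted p from 0.0563 to 0.128) and Elovl3 on leaving out any of ND 2, ND 3, HFD 1, HFD 2, HFD 3, GT 1, GT 2 or GT 3 (adjusted p from 0.0506 to 0.145), and the count of rises was 3 when any of HFD 2, HFD 3, GT 1, GT 2 or GT 3 was left out. Acss2 also passed with all 9 libraries. Acaca, Scd1, Acly and Elovl3 did not.

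Uptake and oxidation of fatty acids did not move together. Of 17 uptake genes 4 rose and 1 fell without ND 1, beside 15.9% and 8.39% of all genes. With all 9, 2 (0 without HFD 3) were higher. The rises without ND 1 included Fabp5, the receptor Lrp1 and the acyl-CoA synthetase Acsl5 (2.17, 1.27 and 0.80). Cd36, the fatty acid transporter, stood at 1865, 2176 and 2254 FPKM in HFD 1, 2 and 3, against 2230.0 and 1595 FPKM in ND 2 and ND 3 and 43.0 FPKM in ND 1. The fall was that of Acsl1 at 0.49, which ended on leaving out any of ND 2, ND 3, HFD 2, HFD 3 or GT 2 (adjusted p from 0.0572 to 0.118). Of 26 oxidation genes 3 rose and 7 fell without ND 1, beside the same shares of all genes. Their median was -0.16 without ND 1, and 0 passed with all 9 libraries. The isomerases Eci3 and Eci1 and the dehydrogenase Acadvl fell by 3.27, 0.69 and 0.51. The trifunctional protein subunit Hadha, the carnitine transferase Cpt1a and the thiolase Acaa1b rose by 0.60, 0.65 and 0.79. Cpt1a ended without HFD 3 (adjusted p = 0.0585) and Acaa1b without ND 3 (adjusted p = 0.0586), and the count of falls was 3 to 4 when any of ND 2, HFD 1, HFD 2, HFD 3 or GT 2 was left out. Without ND 2 the count of rises was 5. Fabp5 also passed with all 9 libraries. Lrp1, Acsl5, Acsl1, Eci3, Eci1, Acadvl, Hadha, Cpt1a and Acaa1b did not.

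Genes of cholesterol synthesis rose as a group. Of 22 genes of cholesterol synthesis and its SREBP2 programme 13 rose and 1 fell without ND 1, and 6 (0 without HFD 3) were higher with all 9 libraries, with medians of 0.75 and 0.86. Msmo1, a sterol demethylation enzyme, stood at 23.9, 25 and 27.3 FPKM in HFD 1, 2 and 3, against 8.50, 7.54 and 7.70 FPKM in ND 1, 2 and 3. Dhcr7, the last step to cholesterol, stood at 18.9, 20.9 and 32.7 FPKM in HFD 1, 2 and 3, against 3.03, 3.30 and 5.94 FPKM in ND 1, 2 and 3. Both lay above every ND library in every HFD library, with changes of 1.61 ± 0.13 without ND 1 (adjusted p = 0.00131) and 1.57 ± 0.19 with all 9 libraries (adjusted p = 0.00657), and 2.16 ± 0.32 without ND 1 (adjusted p = 0.00333) and 2.31 ± 0.33 with all 9 libraries (adjusted p = 0.00854). Fdps, a prenyl diphosphate synthase, and the regulator Insig1 rose by 1.41 and 1.54. The fall was that of the synthase Hmgcs1 at 0.46, chosen after its value was seen, which ended on leaving out any of ND 2, ND 3, HFD 1, HFD 2, HFD 3 or GT 2 (adjusted p from 0.0554 to 0.111). The sterol element core TCACNCCAC was present on either strand for 145 of the 10642 promoter windows (1.36%) and for 1 of 15 cholesterol genes with a window (6.67%), and CACGTG for 4 of these 15 (26.7%). Insig1 also passed with all 9 libraries. Fdps and Hmgcs1 did not.

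Of 12 genes of sterol export and LXR targets 4 rose and 1 fell without ND 1, beside 15.9% and 8.39% of all genes. With all 9, 4 (0 without HFD 3) were higher. Soat1, which esterifies cholesterol for storage in droplets, stood at 43.2, 41.3 and 53.2 FPKM in HFD 1, 2 and 3, against 10.2, 2.89 and 5.39 FPKM in ND 1, 2 and 3. The phospholipid transfer protein Pltp stood at 608, 493 and 598 FPKM in HFD 1, 2 and 3, against 41.2, 93.5 and 104 FPKM in ND 1, 2 and 3, and the exporter Abcg1 rose by 1.05. Apoe, the apolipoprotein of macrophages and adipocytes, stood at 3009, 2452 and 2415 FPKM in HFD 1, 2 and 3, against 5592 and 6109.7 FPKM in ND 2 and ND 3 and 2303 FPKM in ND 1, with a change of -1.16 ± 0.17 without ND 1 (adjusted p = 0.00307) and -0.71 ± 0.44 with all 9 libraries (adjusted p = 0.341). So Apoe fell while the storage enzyme, Pltp and the hydrolase Nceh1 rose. Soat1, Pltp, Abcg1 and Nceh1 also passed with all 9 libraries.

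Breakdown of the branched-chain amino acids leucine, isoleucine and valine, an adipocyte pathway that supplies acetyl-CoA for lipogenesis, fell in 16 of 22 genes without ND 1, at a median of -0.87, and 0 rose. With all 9 libraries 0 passed and the median was 0.00. Against ND 2 alone 19 fell. Bckdha, a subunit of the rate-limiting dehydrogenase, stood at 60.8, 50.3 and 58.5 FPKM in HFD 1, 2 and 3, against 97.8, 104 and 102 FPKM in ND 1, 2 and 3, with a change of -0.86 ± 0.14 without ND 1 (adjusted p = 0.0043) and -0.83 ± 0.22 with all 9 libraries (adjusted p = 0.0669). It was lower in each HFD library than in each ND library. ND 1 adds no support here, as the whole list was lowest in ND 1 and the tissue behind its Bckdha was not tested. Aldh6a1, of valine breakdown, stood at 76.6, 117 and 89.7 FPKM in HFD 1, 2 and 3, against 319 and 239 FPKM in ND 2 and ND 3 and 9.99 FPKM in ND 1, and Ivd, of leucine breakdown, at 48.0, 58.0 and 60.1 FPKM in HFD 1, 2 and 3, against 152 and 144 FPKM in ND 2 and ND 3 and 29.4 FPKM in ND 1. They changed by -1.56 ± 0.25 and -1.41 ± 0.18. The transacylase Dbt, the propionyl-CoA carboxylase subunit Pccb and the carboxylase subunit Mccc2 fell by 1.16, 1.08 and 0.89. The list summed to 1056, 1067 and 1032 FPKM in HFD 1, 2 and 3, against 459, 2289.7 and 1736 FPKM in ND 1, 2 and 3, and the adipocyte marker sums given above were likewise lower in HFD than in ND 2 and ND 3. Their part in this fall was not tested. Aldh6a1, Ivd, Dbt, Pccb and Mccc2 did not pass with all 9 libraries.

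Other mitochondrial genes passed without ND 1 only. In the citrate cycle and pyruvate oxidation 6 of 24 fell and 0 rose without ND 1, and 0 passed with all 9 libraries. The kinase Pdk2, which restrains pyruvate dehydrogenase, stood at 36.1, 29.6 and 25.4 FPKM in HFD 1, 2 and 3, against 82.5 and 122 FPKM in ND 2 and ND 3 and 48.9 FPKM in ND 1, and its change of -1.71 ± 0.24 was the largest of the list. Suclg2, Sdha, the dehydrogenase subunit Pdha1 and Idh2 fell by 0.77, 0.75, 0.73 and 0.63. Of 28 genes of the respiratory chain and ATP synthase 4 rose and 6 fell without ND 1, beside 15.9% and 8.39% of all genes, and 0 passed with all 9 libraries. Changes without ND 1 included those of complex I subunits Ndufv1 and Ndufb8, which fell by 0.64 and 0.63, and cytochrome oxidase subunits Cox5a and Cox5b, which rose by 0.98 and 1.49. Without ND 3 the count of falls was 10 in the citrate cycle list and 12 in the respiratory list. Without HFD 1, HFD 2, HFD 3 and GT 2 the respiratory falls numbered 2 to 3, and the rises 2 without HFD 1, HFD 3 and GT 2. Pdk2, Suclg2, Sdha, Pdha1, Idh2, Ndufv1, Ndufb8, Cox5a and Cox5b did not pass with all 9 libraries.

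Of 11 genes of heat production 2 rose and 3 fell without ND 1, beside 15.9% and 8.39% of all genes. With all 9 libraries 1 (0 without HFD 3) was higher and 0 were lower. Ucp2, an uncoupling protein also of macrophages, stood at 708, 536 and 717 FPKM in HFD 1, 2 and 3, against 47.5, 109 and 128 FPKM in ND 1, 2 and 3, with a change of 2.45 ± 0.30 without ND 1 (adjusted p = 0.00189) and 2.88 ± 0.45 with all 9 libraries (adjusted p = 0.0109). Ucp3 stood at 14.9, 16.5 and 12.6 FPKM in HFD 1, 2 and 3, against 41.5 and 47.0 FPKM in ND 2 and ND 3 and 2.57 FPKM in ND 1 and fell by 1.54, as did the brown fat factor Ebf2 (1.14) and the ATP-Mg carrier Slc25a25 (0.88). The call of Slc25a25 ended without HFD 3 (adjusted p = 0.0619). The elongase Elovl3, described above, was the second rise of the list. Ucp1, which makes heat in brown fat, stood at 0.475, 0.0322 and 5.05 FPKM in the HFD libraries and 4.43, 0.0395 and 0.0773 FPKM in ND 1, 2 and 3. It varied within each diet and did not pass the filter, like the coactivator Ppargc1a, at 0.677, 0.822 and 0.499 FPKM in the HFD libraries and 0.350, 2.98 and 2.72 FPKM in ND 1, 2 and 3. Ucp3, Ebf2, Slc25a25 and Elovl3 did not pass with all 9 libraries.

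Of 20 insulin signalling genes 7 fell and 3 rose without ND 1, beside 8.39% and 15.9% of all genes. With all 9 libraries 0 were lower and 1 (0 without HFD 3) was higher. The insulin receptor gene Insr stood at 11.5, 15.8 and 12.6 FPKM in HFD 1, 2 and 3, against 33.1 and 32.7 FPKM in ND 2 and ND 3 and 3.51 FPKM in ND 1. Irs2, an adaptor of the receptor, stood at 10.6, 11.9 and 12.1 FPKM in HFD 1, 2 and 3, against 24.3 and 36.4 FPKM in ND 2 and ND 3 and 2.13 FPKM in ND 1. Insr, Irs2 and the kinase Akt2 were lower in each HFD library than in ND 2 and ND 3 and changed by -1.26 ± 0.15, -1.30 ± 0.26 and -0.86 ± 0.13. Irs1 fell by 1.00, a call that ended on leaving out any of ND 3, HFD 1 or HFD 3 (adjusted p from 0.0535 to 0.0719). Slc2a4, the insulin-dependent glucose carrier, stood at 25.6, 28.8 and 20.0 FPKM in HFD 1, 2 and 3, against 62.7 and 36.0 FPKM in ND 2 and ND 3 and 2.54 FPKM in ND 1, a change of -0.93 that did not pass (adjusted p = 0.0751). Ptpn1, the phosphatase that acts on the insulin receptor, stood at 30.8, 32.4 and 32.8 FPKM in HFD 1, 2 and 3, against 14.4, 9.76 and 16.2 FPKM in ND 1, 2 and 3, and the adaptor Grb14, an inhibitor of the receptor, rose by 0.88. In glycolysis 5 of 20 rose and 3 fell without ND 1, beside the same shares of all genes, and 1 and 0 with all 9. The count of falls was 0 without HFD 3. Hk3, the hexokinase of white blood cells, stood at 52.5, 39.6 and 60.0 FPKM in HFD 1, 2 and 3, against 0.743, 1.68 and 2.01 FPKM in ND 1, 2 and 3, and Pkm, Tpi1, Pgam1 and Pgk1 rose by 1.24, 1.03, 0.98 and 0.80. Pgk1 ended without ND 3 (adjusted p = 0.0594) and without HFD 3 (adjusted p = 0.0613), and the regulator Pfkfb3, which fell by 1.04, ended without ND 3 (adjusted p = 0.0515) and without HFD 3 (adjusted p = 0.0557). Ptpn1 and Hk3 also passed with all 9 libraries. Insr, Irs2, Akt2, Irs1, Grb14, Pkm, Tpi1, Pgam1, Pgk1 and Pfkfb3 did not.

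Cell cycle genes rose in 17 of 24 without ND 1, at a median of 1.44, and in 7 (0 without HFD 3) with all 9 libraries, at a median of 1.13, and 0 fell. The counts without HFD 1 and without HFD 3 were 11 each. Mki67, present in dividing cells, stood at 7.64, 8.41 and 7.78 FPKM in HFD 1, 2 and 3, against 1.81, 1.25 and 1.60 FPKM in ND 1, 2 and 3. Cyclin A2 (Ccna2) stood at 10.6, 9.87 and 9.90 FPKM in HFD 1, 2 and 3, against 2.68, 1.67 and 1.29 FPKM in ND 1, 2 and 3, and the replication helicase subunit Mcm5 at 10.2, 9.59 and 11.3 FPKM in the HFD libraries and 3.57, 1.28 and 2.43 FPKM in ND 1, 2 and 3. None of the 3 overlapped between the diets, with changes of 1.88, 2.17 and 2.02 without ND 1. The whole list summed to 355.6, 283.6 and 329.5 FPKM in HFD 1, 2 and 3. In ND 1, 2 and 3 it summed to 387.9, 96.7 and 166.2 FPKM, so testis-bearing ND 1 was its highest library. Of 14 p53 targets and senescence genes 7 rose and 1 fell without ND 1, and 2 (0 without HFD 3) were higher with all 9, led by Gdf15 and the cyclin kinase inhibitor Cdkn1a (1.39). The fall was of the stress sensor Sesn2, at 1.51. The cell death gene Bax and the p53 regulator Mdm2 rose by 1.10 and 0.71, and ended on leaving out any of ND 3, HFD 1 or HFD 3 (adjusted p from 0.0614 to 0.0768) and on leaving out any of ND 2, HFD 1, HFD 2, HFD 3 or GT 2 (adjusted p from 0.0607 to 0.0839). The count of rises was 3 to 4 when any of ND 2, ND 3, HFD 1, HFD 2, HFD 3 or GT 2 was left out. Mki67, Ccna2, Mcm5, Gdf15 and Cdkn1a also passed with all 9 libraries. Sesn2, Bax and Mdm2 did not.

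Genes of stress programmes moved in both directions. Of 14 genes of the integrated stress response 5 rose and 5 fell without ND 1, and 2 (1 without HFD 3) and 1 (0 without HFD 3) with all 9. Atf3, a stress-induced transcription factor, stood at 130.0, 115 and 151 FPKM in HFD 1, 2 and 3, against 0.529, 4.55 and 3.47 FPKM in ND 1, 2 and 3. Asns, which makes asparagine and is a main target of the ATF4 factor, stood at 18.6, 15.4 and 14.5 FPKM in HFD 1, 2 and 3, against 59.6, 46.1 and 52.4 FPKM in ND 1, 2 and 3, with a change of -1.55 ± 0.17 without ND 1 (adjusted p = 0.00161) and -1.65 ± 0.23 with all 9 libraries (adjusted p = 0.00745). Atf3 and Asns thus moved in opposite directions, with no overlap between the diets in either. Mthfd2 rose by 1.51 and Trib3 fell by 0.84. The counts were 3 up without HFD 3 and 3 down without HFD 2 and without HFD 3. Of 17 chaperones and regulators of the endoplasmic reticulum 9 rose and 0 fell without ND 1, and 0 passed with all 9. The chaperones Hspa5 and Calr, the disulfide isomerase Pdia3 and Dnajb11 rose by 0.96, 1.16, 0.87 and 0.88. Of 19 antioxidant genes 5 rose and 3 fell without ND 1, and 2 (0 without HFD 3) and 1 (0 without HFD 3) with all 9. Hmox1, which degrades heme, stood at 110.5, 92.8 and 133 FPKM in HFD 1, 2 and 3, against 3.15, 17.0 and 18.5 FPKM in ND 1, 2 and 3. Gsta4, the transferase that clears lipid aldehydes, stood at 3.64, 2.42 and 3.54 FPKM in HFD 1, 2 and 3, against 41.2, 22.4 and 22.4 FPKM in ND 1, 2 and 3, and its relative Gsta3 fell by 2.1. The sulfiredoxin Srxn1, the thioredoxin reductase Txnrd1 and the superoxide dismutase Sod2 rose by 1.44, 0.88 and 0.69. Atf3, Hmox1, Gsta4 and Srxn1 also passed with all 9 libraries. Mthfd2, Trib3, Hspa5, Calr, Pdia3, Dnajb11, Gsta3, Txnrd1 and Sod2 did not.

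Enzymes of foreign compounds and aldehydes fell in 12 of 18 without ND 1, at a median of -1.45, and in 2 (0 without HFD 3) with all 9 libraries, and 0 rose. Besides Cyp2e1, Acsm3, Ces1d and the Gsta genes, these held the flavin oxygenase Fmo1, the transferase Gstt1 and the acetyltransferase Nat8f1, at 1.71, 1.53 and 1.44. Of 18 clock genes 6 fell and 1 rose without ND 1, beside 8.39% and 15.9% of all genes, and 0 passed with all 9. The clock regulators Nr1d1, Tef and Per3 fell by 1.10, 0.67 and 0.99. Nr1d1 ended without ND 3 (adjusted p = 0.0971) and without HFD 3 (adjusted p = 0.0591), and without ND 3 and without HFD 3 the count of falls was 3. The labels do not give the hour at which tissue was taken. Among 16 complement genes 10 rose and 2 fell without ND 1, and 5 (0 without HFD 3) and 1 with all 9 libraries. The anaphylatoxin receptor C3ar1 stood at 87.6, 90.9 and 112 FPKM in HFD 1, 2 and 3, against 0.659, 5.71 and 4.11 FPKM in ND 1, 2 and 3, the receptor C5ar1 rose by 2.75 and C3, the central component, by 1.11, while the protease Cfd and the component C2, chosen after its value was seen, fell. Ribosomal protein genes rose in 8 of 27 without ND 1 and in 0 with all 9, but in 0 to 3 when any of ND 3, HFD 1, HFD 2, HFD 3 or GT 2 was left out, in 2 to 15 under other scalings and in 0 against ND 2 alone. Nat8f1, C3ar1, C5ar1 and Cfd also passed with all 9 libraries. Cyp2e1, Acsm3, Ces1d, Fmo1, Gstt1, Nr1d1, Tef, Per3, C3 and C2 did not.

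**Figure D5:**
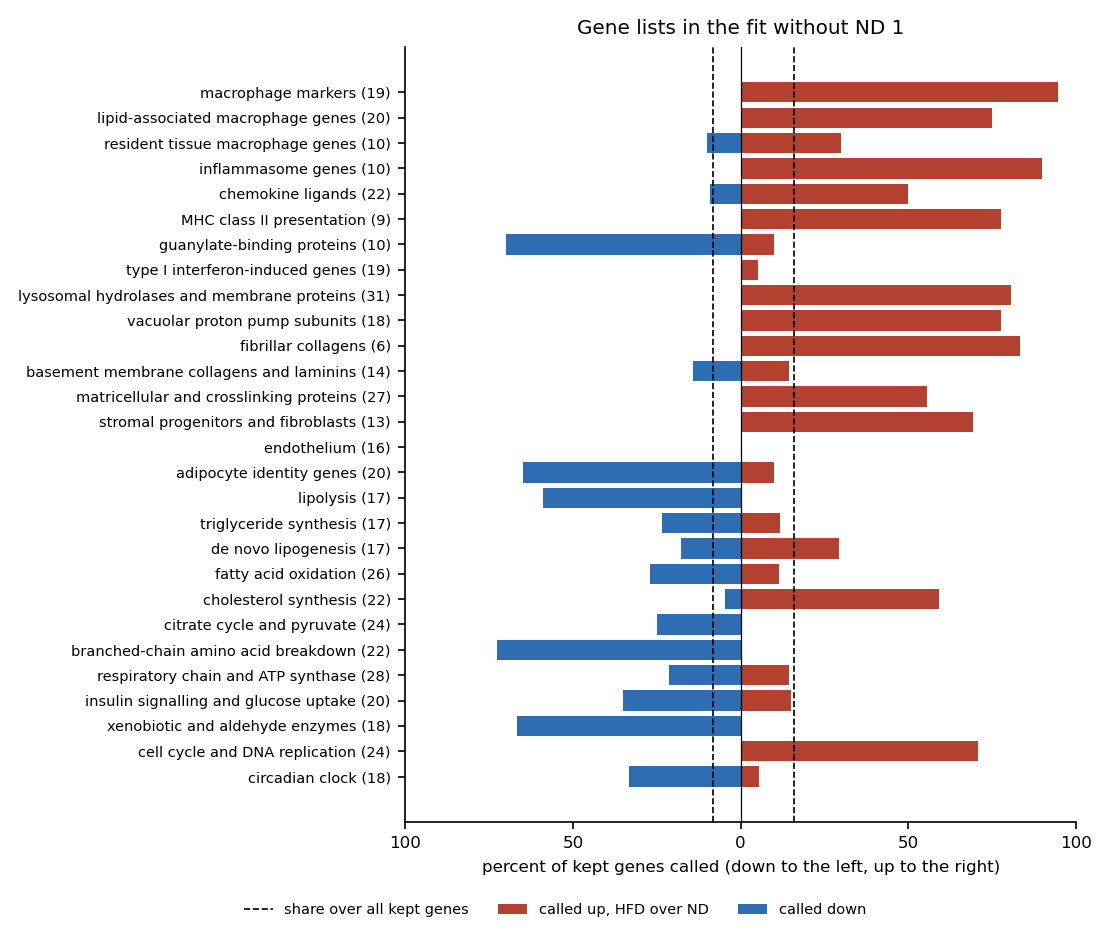
Share of the kept genes of 28 lists that were called up (red, to the right) or down (blue, to the left), HFD relative to ND, without ND 1. Numbers of kept genes stand in parentheses, and dashed lines mark the shares over all 13762 genes, 15.9% up and 8.39% down.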

How the data were processed

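Epididymal fat RNA was sequenced on an Illumina platform from TruSeq libraries after TRIZOL extraction, per the labels' protocols. The authors deposited 1 table of FPKM values per gene and library, made with CASAVA 1.8.2, STAR 2.4.0 and Cufflinks 2.1.1, per the submitters' processing notes. The genome build and annotation are not given in the sources used here, and the read depth is unknown. Cufflinks divides reads between genes by estimate, so a listed 0 need not mean that no read was present, and values of close paralogs are uncertain.

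From these values, Ensembl gene IDs were matched to GENCODE M21 symbols (22671 of 23474). Genes with at least 1 FPKM in at least 3 of the 9 fat libraries were kept (13762), and log2(FPKM + 1) was fitted with limma 3.58.1 in R 4.3.3, with 1 mean per diet and an intensity-trended, robust variance prior. Benjamini-Hochberg adjustment ran over all 13762 genes, with a threshold of 0.05. The fit was made with all 9 libraries and again without ND 1 on the same genes. The green tea libraries entered both fits for the spread only, and the filter counted them as well. A gene could thus pass the filter through its HFD libraries alone, but not through ND 2 and ND 3 alone. Ppargc1a, over 1 FPKM in ND 2 and ND 3, was left out in this way. An exact two-sided permutation test of 3 libraries against 3 cannot go below p = 0.1, so single-gene permutation tests were not used. Tested on simulated data with 200 changed genes of 13762, the fit without ND 1 recovered 52% of changes of 1 and 93% of changes of 2 on the log2 scale, with 8 false calls. In the same test the fit with all 9 recovered 3% and 37%, with 5 false calls. The simulation drew the spread of each gene independently and changed only genes above a mean log2(FPKM + 1) of 2. It also changed far fewer genes than the 3342 called here. The false calls are therefore no error rate for these fits. Whether the recovered shares and false calls hold for libraries that differ in testis and epididymis RNA, as those here do, was not tested.

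The members and gene lists were chosen with earlier results of these data known, so list counts are descriptions. Genes named in the text are of 3 kinds. The first are the 12 largest rises and 12 largest falls called without ND 1, with groups apart, a mean of at least 10 FPKM in the higher group, and predicted, small RNA, segment, mitochondrial and testis or epididymis list genes passed over. The second are the up to 6 members of each list with the smallest p without ND 1 and a set of well-known members, and the third are genes called with all 9 libraries only. Others, and named members that did not pass the filter and are not well known in fat, were chosen after their values were seen. Some items are not reported here. Alternatives covered the pseudocount, filters, scalings, variance priors, array weights, a testis covariate, a replicate block and leaving out libraries. Promoter windows and their sequences are from RefSeq on GRCm38.p6, whatever build the authors used.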

Additional observations from a re-analysis of the deposited data

How the results depend on the processing

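Depth cannot be read from FPKM, so what it limits is unknown. With all 9 libraries 777 genes differed, against 337 with the replicate block, 317 with only HFD and ND libraries, 1816 with array weights that gave ND 1 a weight of 0.0237, and 3892 without the 3 libraries richest in testis RNA (ND 1, ND 3 and HFD 1). Leaving out 1 library gave 59 to 3342 calls, and without ND 2 the balance of directions reversed, with 1169 up and 1642 down among 2811. In the fit without ND 1, 3342 genes differed, against 2043 with the replicate block and 1323 with array weights. Leaving out 1 more library gave 1853 to 4176 calls, and without ND 2 the balance reversed here too, with 1900 up and 2276 down among 4176. The cause of these shifts was not tested. The fits of HFD and ND only held fewer libraries and also took the spread without the GT libraries, and these were not told apart. Counts under the pseudocount of 0.1, no filter, a filter at 5 FPKM, 3 scalings, a plain variance prior and a testis covariate were 651 to 875 with all 9 libraries and 3000 to 3692 without ND 1. The 51 falls with all 9 libraries numbered 24 under equal FPKM totals and 95 under quantile scaling.

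Same-numbered HFD and ND libraries deviated together with correlations of 0.64, 0.48 and 0.09, so the numbers were not taken to pair the samples. HFD 3 correlated best with ND 2 (0.66), not with its own number. The block ended 43 of the 100 calls with all 9 libraries and 25 of the 235 calls without ND 1 among the genes named. Of those 235, array weights ended 67 and leaving out the 3 libraries rich in testis RNA 29. Fitting only HFD and ND libraries ended 46 of the 100.

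Scaling to equal FPKM totals moved the median change of all genes from 0.13 to 0.41 with all 9 libraries, so changes there are best read against that shift, and from -0.02 to 0.05 without ND 1. Of the 235 named calls without ND 1, 197 held in each fit that left out 1 more library, and 32 ended without HFD 3, 22 without ND 3 and 18 without ND 2. Of the 100 with all 9 libraries, 21 held in each. No named gene called in a fit changed sign under the alternatives run on that fit. Values that did not pass could change sign, as that of Pparg did when ND 1 was left out. List medians that changed sign with the scaling were, without ND 1, those of resident macrophages, basement membrane, lipogenesis, fatty acid uptake and the integrated stress response. With all 9 libraries they were those of lymphocytes, dendritic cells, adipocyte identity, lipolysis, droplet proteins, branched-chain amino acid breakdown, the respiratory chain, the clock and the integrated stress response.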

Other observations

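Some epididymal genes, chosen after their values were seen, were high in HFD 2 and ND 1 only and did not enter the comparison, since they did not reach 1 FPKM in enough libraries. Crisp1, a secreted protein that binds sperm, stood at 0.149, 1172 and 0.531 FPKM in the HFD libraries and 109.8, 0 and 0.0612 FPKM in ND 1, 2 and 3. Adam7, a membrane protein of the epididymis, stood at 0.346, 103 and 0.0414 FPKM in the HFD libraries and 267, 0.407 and 0.838 FPKM in ND 1, 2 and 3. HFD 2 thus held more Crisp1 than ND 1 did, while the summed epididymal list was higher in ND 1.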
